A study of Mus musculus with 6 samples.

Results

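The genes described here are those of 10 helix-loop-helix transcription factors and inhibitors: Id1, Id2, Id3 and Id4, the E protein genes Tcf3, Tcf4 and Tcf12, Twist1, Twist2, and Bhlhe40. They were chosen by gene symbol, and all 10 were present among the 35976 genes of the deposited tables and among the 17348 genes tested. The transcripts of Tcf3, Tcf4 and Tcf12 were examined as well. The symbols need care: Tcf3 here is E2A and not Tcf7l1, Tcf4 is E2-2 and not Tcf7l2, and Tcf12 is HEB.

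RNA-seq was performed on satellite cells (SCs), the Pax7-expressing stem cells of skeletal muscle, with 3 samples of the genotype NF-YA cKO and 3 of the genotype NF-YA fl/fl. NF-YA is the part of the trimeric factor NF-Y that contacts the CCAAT box. NF-YA cKO mice carried floxed NF-YA alleles (LoxP sites in introns 2 and 8) and Pax7-CreERT2, a tamoxifen-activated Cre recombinase driven from the Pax7 locus, so that deletion was directed to Pax7-expressing cells, whereas NF-YA fl/fl mice carried the floxed alleles without Cre and also received tamoxifen. The labels give an age of 5 to 7 weeks and tamoxifen at 20 mg/ml, while the study's methods describe male mice of 6 to 8 weeks, 5 daily injections of 0.1 mg per g of body weight and muscle harvest 7 days later. SCs were enriched by magnetic depletion of other cell types, plated at the same number, and collected after 4 days in growth medium with FGF-2. These genotypes are called cKO and control from here on.

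Helix-loop-helix proteins act as pairs. E proteins bind E-box DNA (CANNTG) together with a tissue-restricted partner, which in muscle is a myogenic factor such as MyoD or myogenin. Id proteins lack the basic DNA-binding region, so that an E protein held by an Id protein cannot bind DNA, and in many cell types Id genes are targets of bone morphogenetic protein (BMP) signalling through Smad factors. Twist proteins also pair with E proteins and can oppose MyoD, and Bhlhe40 is a repressor that belongs to the circadian clock.

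The promoters with sequences in RefSeq (GRCm38.p6) were searched for CCAAT on both strands, since NF-Y binds this box. Windows of 300 bases (250 before to 50 after the start site) were on hand for Id2, Id3, Id4, Tcf3, Tcf12, Twist1 and Twist2, and Tcf12 had windows at 3 start sites. Id1 and Bhlhe40 had no entry, and the Tcf4 promoter was not analysed here. CCAAT or its reverse ATTGG occurred in 5 of the 9 windows, beside 37.4% of the 32851 windows of all genes. Id2 held 3 boxes, a number reached by 3.37% of all windows, and Id3, Tcf3 and the upstream Tcf12 starts held none. The Id2 and Id3 windows lay inside the annotated genes, so that sequence before the annotated starts of these genes was not searched. A match of these letters does not show that NF-Y was bound.

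The boxes are printed below with up to 12 flanking bases, because NF-Y recognizes them. They read 5′ to 3′ on the strand of the gene, with the box in capitals, and the number in each name is the position of the first base of the box relative to the start site. The 3 Id2 sites lie on chromosome 12 (minus strand) at 25096235-25096263, 25096196-25096224 and 25096152-25096180, and overlap the first part of a longer annotated Id2 transcript. The Tcf12 sites lie on chromosome 9 (minus strand) at 71896318-71896346 and 71896198-71896226, close to an internal start site. In the annotation both overlap the internal first exon of Tcf12. The Id4 sites are on chromosome 13 (48260866-48260892 and 48260906-48260934), the Twist1 site is on chromosome 12 (33957570-33957598) and the Twist2 site is on chromosome 1 (91801386-91801414), all on the plus strand.
Id2 at -159: caccctacaggcATTGGctgcgaacgcgg
Id2 at -120: agctcatactcaCCAATgggagaattcgc
Id2 at -76: ggagcccttccaCCAATggcaattcaggg
Id4 at -240: tgcccttcccATTGGcccgagcgtcat
Id4 at -198: actgtcctcctgATTGGctggtcactccc
Tcf12 internal start at -238: gagagagagagaATTGGtttttcttttgt
Tcf12 internal start at -118: tggtatcttccaCCAATgctaggatttgg
Twist1 at -89: ccccacgtcaggCCAATgacaccgctgcc
Twist2 at -63: tggccacggtggCCAATcagcgcgccgcc

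The libraries held 26936230 to 41118984 expected counts. An entry that the authors added for the deleted Nfya allele took 22.3% to 34.2% of the Nfya counts in cKO and 0 counts in every control library. With that entry included, Nfya was at 27.0 to 28.5 CPM in cKO and 23.4 to 36.9 CPM in the controls (log2 fold change -0.06, FDR = 0.814). Xist was at 836 to 852 TMM-normalized CPM in cKO and at most at 0.475 CPM in the controls, and the Y-linked Ddx3y was at 80.9 to 88.6 CPM in the controls and at most at 0.0957 CPM in cKO. The genotypes thus differ in sex-linked genes as well, and effects of sex and of the deletion cannot be told apart. Of 12 SC markers, all but the scarce Chodl had counts in every library. Pax7 was at 145 to 201 CPM in cKO and 73.5 to 105 CPM in the controls, but Cdh15 and Des were called lower, none was called higher, and the summed SC markers were at 1921 to 2152 CPM in cKO and 2791 to 4636 CPM in the controls. Markers of other cell types moved with genotype: the 14 macrophage markers summed to 149 to 293 CPM in cKO and 6.41 to 16.5 CPM in the controls (11 of 12 tested were called higher, and none was at 0 in all libraries of a genotype), and all 14 differentiated muscle markers were called lower in cKO, summing to 675 to 1502 CPM against 49659 to 60681 CPM. Endothelial markers summed to 25.5 to 30.0 CPM in cKO and 8.11 to 17.5 CPM in the controls (2 of 9 tested called higher). Pericyte and smooth muscle markers summed to 1230 to 1394 CPM and 3374 to 3940 CPM (3 of 9 called lower). Those called were Acta2 (1389 to 1740 CPM in the controls), Abcc9 and Des (1218 to 1528 CPM), which is also an SC marker. All cKO libraries were lower for 5 of the 9, while Cspg4, Pdgfrb, Myh11 and Cnn1 overlapped. Of 8 Schwann cell markers, 4 were called higher and Erbb3 was called lower, and their sums were 69.6 to 83.2 CPM in cKO and 118 to 211 CPM in the controls. The part of these cell types in the results was not tested. The control libraries varied more among themselves (biological coefficient of variation 0.312) than the cKO ones (0.107). Control replicate 3 stood apart, with the lowest value of all 6 libraries for 7 of the 10 tested fibroblast markers and the highest Myod1, so that results are also given without it where it matters.

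A call required a log2 fold change beyond 1 in either direction at an FDR below 0.01 (edgeR's quasi-likelihood test). By this rule 1 of the 10 genes, Id2, rose in cKO and none fell, while 4.65% of all tested genes rose and 7.67% fell. At an FDR under 0.05 without a fold threshold, 4 genes were higher (Id1, Id2, Id3 and Tcf3) and 1 was lower (Tcf4), beside 19.7% and 18.9% of all tested genes. When any single cKO library was left out, Id1 (FDR from 0.0565 to 0.0818), Id3 (0.0717 to 0.107) and Tcf3 (0.0554 to 0.0836) no longer passed 0.05, and under limma on TPM Tcf3 did not pass either (FDR = 0.112). These 5 genes were also those whose genotypes did not overlap, with 4 above and 1 below, which was the case for 29.1% (above) and 26.2% (below) of all tested genes. The members that did not reach an FDR of 0.05 were Id4, Tcf12, Twist1, Twist2 and Bhlhe40. Levels of RNA from bulk samples are given throughout, in which fewer cells of a type and less RNA per cell cannot be told apart.

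**Figure D1:**
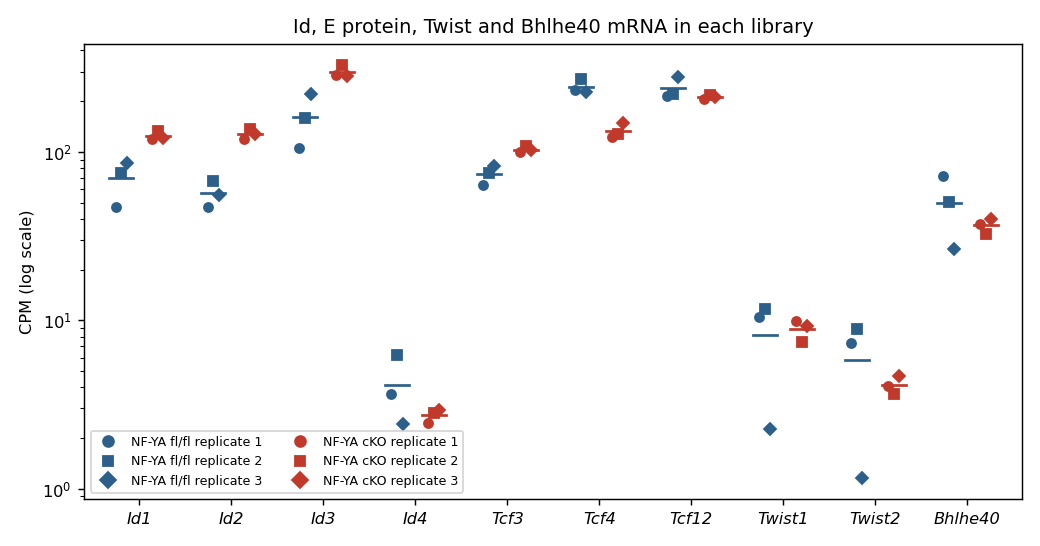
CPM of each gene (log axis) in the 3 NF-YA fl/fl (control, blue) and 3 cKO (red) libraries, with a bar at each mean and a symbol shape for each replicate number. Id1, Id2, Id3 and Tcf3 sit higher in every cKO library, Tcf4 sits lower, and control replicate 3 (diamond) is the lowest point for Twist1, Twist2 and Bhlhe40.

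The inhibitors came first. Id2 (chromosome 12, 25093799-25097140, minus strand, GRCm38) was at 119, 138 and 127 CPM in cKO replicates 1 to 3 and at 47.2, 67.0 and 55.7 CPM in the controls. The lowest cKO library lay well above the highest control library. The rise was 2.26-fold (log2 fold change 1.18, standard error 0.14, FDR = 0.00152). Id2 stayed higher under all 13 alternatives, with log2 fold changes of 1.05 to 1.31, and was called under 9 of them. It lost the call under limma on TPM (FDR = 0.0149 with a pseudocount of 1) and without cKO replicate 2 (FDR = 0.0126) or 3 (FDR = 0.0102).

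Id1 (chromosome 2, 152736251-152737410, plus strand) was at 119, 132 and 120 CPM in cKO and at 47.3, 75.4 and 85.8 CPM in the controls. Id3 (chromosome 4, 136143497-136145755, plus strand) was at 285, 329 and 284 CPM in cKO and at 105, 160 and 219 CPM in the controls. For both genes the cKO libraries were close together and all higher, while the control libraries varied more (69.5 ± 19.9 CPM for Id1 and 161 ± 57.3 CPM for Id3, SD, n = 3). On the log2 scale Id1 differed by 0.83 (standard error 0.21, FDR = 0.0206) and Id3 by 0.89 (standard error 0.25, FDR = 0.0300), so that neither passed the rule. Without control replicate 3, in which both genes were at their control maximum, both were called, with log2 fold changes of 1.005 (FDR = 0.00513) and 1.17 (FDR = 0.00248), in a fit that called 4.97% of all genes higher. Without control replicate 1, in which both were at their control minimum, Id1 differed by 0.61 (FDR = 0.0150) and Id3 by 0.65 (FDR = 0.0395). Without control replicate 2, Id3 had an FDR of 0.0703.

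Id4 (chromosome 13, 48261228-48266026, plus strand), the Id gene with the least RNA here, was at 2.46, 2.82 and 2.91 CPM in cKO and at 3.67, 6.24 and 2.41 CPM in the controls. The genotypes overlapped. Its log2 fold change of -0.59 had a 95% interval from -1.42 to 0.24 (FDR = 0.221), which spans 0. Its log2 fold change was -0.87 without control replicate 3 (FDR = 0.0296) and -0.16 without control replicate 2 (FDR = 0.634).

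The E protein genes did not move together. Tcf3 (chromosome 10, 80409514-80433647, minus strand), whose E12 and E47 products are the classical E proteins, was at 99.6, 108 and 102 CPM in cKO and at 63.2, 74.5 and 82.7 CPM in the controls. Every cKO library was higher, by 1.40-fold in the fit (log2 fold change 0.49, standard error 0.12, FDR = 0.0164). Tcf4 (chromosome 18, 69343356-69689079, plus strand) went the other way, at 123, 127 and 148 CPM in cKO and 233, 272 and 228 CPM in the controls. The genotypes did not overlap, and the log2 fold change was -0.88 (standard error 0.12, FDR = 0.00208), which passed the FDR but not the fold threshold. Across the alternatives the log2 fold change of Tcf4 ranged from -0.99 to -0.80 and never passed the fold threshold. Its FDR exceeded 0.01 without cKO replicate 1 (0.0132) or 2 (0.0164) and under limma on TPM (0.0179 and 0.0209).

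Tcf12 (chromosome 9, 71842688-72111871, minus strand), the E protein gene with the highest TPM, was at 205, 217 and 211 CPM in cKO and at 216, 222 and 280 CPM in the controls. The genotypes overlapped, and the log2 fold change of -0.18 had a 95% interval from -0.47 to 0.11 (FDR = 0.274). In terms of TPM, which allows genes of different length to be compared, Tcf12 made up 47.9% ± 0.792 (SD, n = 3) of the E protein mRNA in cKO and 48.1% ± 3.38 (n = 3) in the controls. Tcf3 made up 32.6% ± 0.981 in cKO and 20.6% ± 0.903 in the controls, and Tcf4 made up 19.6% ± 1.76 and 31.3% ± 3.41. In TPM, Tcf3 was thus above Tcf4 in all 3 cKO libraries and below it in all 3 control libraries. In CPM, which is not corrected for length, Tcf3 was below Tcf4 in every library of both genotypes.

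**Figure D2:**
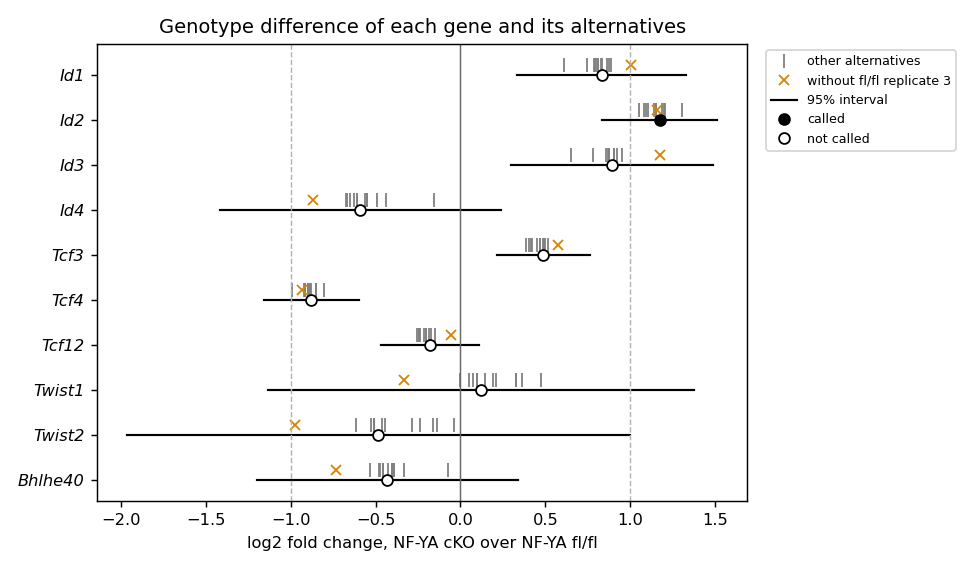
Log2 fold change of each gene (circle, filled where called) with its 95% interval; ticks above it are the alternative settings, and the cross is the fit without control replicate 3. Dashed lines mark a log2 fold change of 1 in each direction, and Id2 is the only gene called in the fit with all 6 libraries.

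The balance of inhibitor to E protein mRNA was computed as summed TPM, with no test because the genes were chosen with results known. Id1 to Id4 summed to 716, 698 and 696 TPM in cKO replicates 1 to 3 and to 271, 504 and 410 TPM in the controls. Tcf3, Tcf4 and Tcf12 summed to 112, 102 and 115 TPM in cKO and to 117, 156 and 119 TPM in the controls. The ratio of Id to E protein mRNA was therefore 6.39, 6.85 and 6.05 in cKO and 2.31, 3.22 and 3.45 in the controls. The genotypes did not overlap, and the mean ratio was 6.43 ± 0.401 (SD, n = 3) in cKO and 2.99 ± 0.606 (n = 3) in the controls. mRNA levels do not give the amount of protein or of dimers.

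In order of TPM, the cKO libraries had Id3 (406 ± 9.33, SD, n = 3) first, then Id1 (172 ± 4.86), Id2 (123 ± 2.79), Tcf12 (52.5 ± 2.74), Tcf3 (35.7 ± 1.83), Tcf4 (21.5 ± 3.05), Bhlhe40 (13.3 ± 2.37), Twist1 (6.51 ± 1.45), Twist2 (3.80 ± 0.698) and Id4 (1.95 ± 0.169). No neighbours in this order overlapped between libraries. In the controls Id3 (230 ± 69.3 TPM) and Id1 (103 ± 32.9 TPM) again led, but Id1 overlapped with Tcf12 (62.5 ± 7.27 TPM) and Id2 (59.4 ± 20.7 TPM), which also overlapped with each other. Id2 and Tcf4 overlapped as well. Tcf4 (41.3 ± 10.4 TPM) and Tcf3 (27.1 ± 5.52 TPM) overlapped, as did Tcf3 and Bhlhe40 (19.6 ± 9.89 TPM), and Bhlhe40 and Twist1. The ranges of Twist1 (6.80 ± 4.88 TPM), Twist2 (6.14 ± 4.82 TPM) and Id4 (3.33 ± 2.17 TPM) overlapped too. Within each control library, however, Id1 was above Tcf12 and Id2, Id2 above Tcf4, and Tcf4 above Tcf3. Bhlhe40 was likewise above Twist1, and Twist1 above Twist2. The order of Tcf12 and Id2, of Tcf3 and Bhlhe40, and of Id4 and the Twist genes changed between control libraries.

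Twist1 and Twist2, which mark mesenchymal cells, showed no call. Twist1 (chromosome 12, 33957671-33959829, plus strand) was at 9.88, 7.38 and 9.26 CPM in cKO and at 10.4, 11.7 and 2.27 CPM in the controls (log2 fold change 0.12, standard error 0.53, FDR = 0.875). Twist2 (chromosome 1, 91801461-91848028, plus strand) was at 4.08, 3.64 and 4.68 CPM in cKO and at 7.34, 8.86 and 1.15 CPM in the controls (log2 fold change -0.49, standard error 0.63, FDR = 0.569). In both genes control replicate 3 was the lowest of all libraries and the other control libraries were the highest.

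The same library was low in most fibroblast markers. Pdgfrl and Tcf7l2 were instead at their highest there, at 1.25 and 1.22 times the mean of the other control libraries. Pdgfra, the receptor that defines fibro-adipogenic progenitors, was at 132, 147 and 21.6 CPM in the control libraries and at 104, 77.7 and 84.1 CPM in cKO. Replicate 3 held 0.206 times the mean of the other control libraries for Twist1, 0.142 times for Twist2, 0.155 times for Pdgfra and 0.0923 times for Cd34, whereas it held 3.49 times their mean for Myod1. The summed fibroblast markers ranged from 1966 to 2365 CPM in cKO and from 1094 to 2913 CPM in the controls, with none at 0 in all libraries of a genotype. Without replicate 3, the log2 fold change of Twist1 was -0.33 (FDR = 0.135) and that of Twist2 was -0.98 (FDR = 0.00467), just inside the fold threshold. Without control replicate 2, Twist2 was at -0.04 (FDR = 0.966). Between genotypes, 1 of the 10 tested fibroblast markers, Lum, was called higher in cKO (log2 fold change 2.98, FDR = 0.00841) and none lower. Dcn was higher at an FDR under 0.05 (1.71, FDR = 0.0145). The part of other cell types in these values was not tested.

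**Figure D3:**
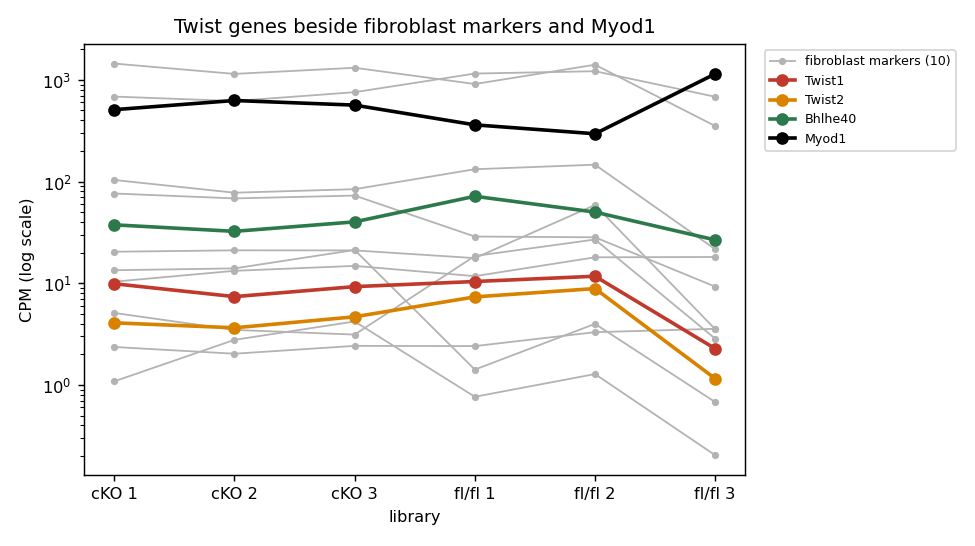
CPM (log axis) in each library for Twist1, Twist2, Bhlhe40 and Myod1 and, in grey, for the 10 tested fibroblast markers; lines join the values of 1 gene and imply no order. In control replicate 3 Twist1 and Twist2 are at their lowest, as are 7 of the 10 fibroblast markers, while Myod1 is at its highest (1146 CPM).

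Bhlhe40 (chromosome 6, 108660629-108666925, plus strand) was at 37.5, 32.4 and 40.1 CPM in cKO and at 71.6, 50.1 and 26.7 CPM in the controls. Control replicate 3 was the lowest of all libraries and the other controls the highest, so that the genotypes overlapped. The log2 fold change was -0.43 with a 95% interval from -1.20 to 0.34 (FDR = 0.328), and -0.73 without that library (FDR = 0.0105). Without control replicate 1 it was -0.07 (FDR = 0.861). Its close relative Bhlhe41 was at 22.0 to 30.8 CPM in cKO and 22.4 to 28.1 CPM in the controls (log2 fold change 0.11, FDR = 0.631). Of 16 other clock genes, 3 fell and none rose: Rora (log2 fold change -1.61, FDR = 0.00067), a nuclear receptor that activates clock genes, and the clock repressors Per2 (-1.22, FDR = 0.00238) and Per3 (-1.0002, FDR = 0.00248). Of all tested genes, 7.67% fell and 4.65% rose. The median log2 fold change of the 16 was -0.55, beside -0.016 for all tested genes.

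The transcripts of the E protein genes were then compared. RSEM splits reads that several transcripts share, so that these values are estimates. Of 45367 transcripts tested, 0.39% rose and 1.01% fell by the same rule. Among the 13 tested transcripts of Tcf3, the 22 of Tcf4 and the 14 of Tcf12, none rose and 1 fell, NM_001253863.1 of Tcf12 (FDR = 0.00289). In a test of transcript shares within genes (edgeR's diffSpliceDGE), 3.13% of the 9470 genes tested passed an FDR of 0.05. Tcf12 (FDR = 1.03e-09) and Tcf4 (FDR = 0.0247) were among them, and Tcf3 (FDR = 0.99999) was not. In both genes only 1 transcript passed that FDR, NM_001253863.1 of Tcf12 and XM_017317863.1 of Tcf4. Each of these passed the count filter through 1 genotype alone, so that its tests restate that difference in counts.

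NM_001253863.1 received 0, 1 and 0 counts in cKO replicates 1 to 3 and 537, 597 and 897 counts in the controls, through which alone it passed the filter. Related to library totals, this is 2531-fold less in cKO, with a 95% counting interval from 454 to 100021. Its share of the Tcf12 TPM was 10.5% ± 1.53 (SD, n = 3) in the controls and 0.01% at most in cKO. The call held without control replicate 3 (FDR = 0.00959) and was lost when any other single library was left out, with FDR values from 0.0106 to 0.0246, although the counts of the remaining libraries stayed apart.

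This transcript starts at an internal first exon (71895930-71896396, minus strand), the start of the short HEB form known as HEBAlt, and contains a cassette exon of 72 bases (71868999-71869070) that the annotation skips in other transcripts. The coding part of the first exon spans 69 bases (71895930-71895998), or 23 codons, and the cassette spans 24 codons. Both sequences, from the GENCODE transcripts (GRCm38) and written 5′ to 3′ on the minus strand, are shown because they define the forms compared here; the capitals mark the start codon.
Tcf12 internal first coding stretch: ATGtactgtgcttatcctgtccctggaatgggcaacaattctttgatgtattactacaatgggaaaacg
Tcf12 cassette exon: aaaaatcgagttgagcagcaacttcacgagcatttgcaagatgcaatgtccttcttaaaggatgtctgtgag

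NM_001253864.1 has the same first exon without the cassette. Its share of the Tcf12 TPM was 23.4%, 31.0% and 26.5% in cKO and 10.9%, 11.9% and 19.1% in the controls. All cKO values exceeded all control values (two-sided exact permutation test, p = 0.1, which is the lowest that 3 against 3 libraries can give). The share of NM_001253864.1 did not pass diffSpliceDGE (FDR = 0.549), and its level was not called (log2 fold change 0.77, FDR = 0.241). The annotated models with the internal first exon, which include the rare NM_001253865.1, together held 27.1% ± 3.93 (SD, n = 3) of the Tcf12 TPM in cKO. In the controls they held 24.8% ± 5.42 (n = 3, exact permutation test, p = 0.5). Within them, the form with the cassette exon was 0%, 0.032% and 0% in cKO and 49.3%, 41.1% and 38.6% in the controls (exact permutation test, p = 0.1). The genotypes therefore separated completely in the cassette form and overlapped in the summed share of the annotated models with the internal start. Predicted models, whose first exons were not read, were not in that sum.

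Among Tcf12 transcripts with upstream starts, NM_011544.3, which contains the cassette exon, held 16.0%, 17.4% and 17.0% in cKO and 15.7%, 10.8% and 12.01% in the controls. NM_001253862.1, which lacks it, held 5.15% ± 1.36 (SD, n = 3) and 4.01% ± 0.766 (n = 3). The predicted model XM_006510997.2 was the most abundant in the controls at 36.1% ± 4.42, and was at 26.7% ± 6.37 in cKO. XM_006510998.2 (7.20% ± 3.09 and 4.97% ± 1.49) and XM_006510999.2 (7.07% ± 0.925 and 3.98% ± 1.38) were minor forms in cKO and control. The predicted models have no match in the annotation, and 6 exons with 609 bases lie between the internal first exon and the cassette, so that how far reads linked them was not tested.

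**Figure D4:**
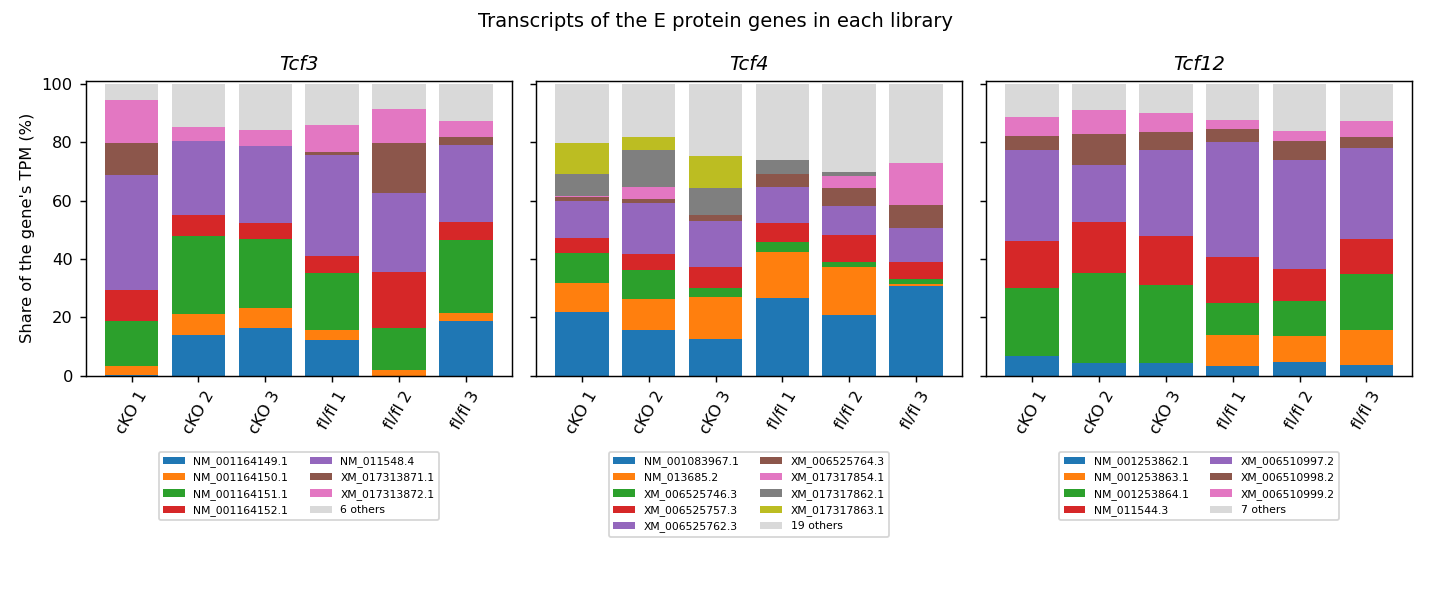
Share of each gene's TPM (percent) held by each transcript with a mean of at least 5% in either genotype, in each library, with the remaining transcripts in grey. For Tcf12 the orange block, NM_001253863.1, is seen in the 3 control libraries (8.92% to 11.97%) and is absent from the cKO bars.

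In Tcf4, the predicted transcript XM_017317863.1 went the other way. It received 390, 219 and 679 counts in cKO, through which alone it passed the filter, and 0 counts in every control library. With 3 counts over the group as the floor, XM_017317863.1 was at least 345-fold higher in cKO. Its level missed the FDR threshold (FDR = 0.0141), and its share within Tcf4 passed diffSpliceDGE (FDR = 0.00495). It held 8.58% ± 3.79 (SD, n = 3) of the Tcf4 TPM in cKO. XM_017317862.1 held 9.89% ± 2.54 in cKO and 1.97% ± 2.37 in the controls, with no overlap. Neither its level (FDR = 0.631) nor its share (diffSpliceDGE, FDR = 0.976) passed.

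The curated Tcf4 transcripts gave no call. NM_001083967.1 was at 28.2, 21.5 and 20.2 CPM in cKO and at 63.7, 56.4 and 72.7 CPM in the controls (log2 fold change -1.46, standard error 0.17, FDR = 0.0104). NM_013685.2 was at 13.2 to 24.2 CPM in cKO and at 40.3, 46.0 and 1.68 CPM in the controls. In replicate 3, where NM_013685.2 was near 0, XM_017317854.1 was high, and it was at 35.0 CPM there and at 0.344 and 11.8 CPM in the other control libraries. XM_006525764.3 held 1.57% ± 0.365 in cKO and 6.17% ± 1.70 in the controls (FDR of its level = 0.018). That difference of -4.60 percentage points was -1.94 when shares of expected counts were taken in place of TPM. XM_006525746.3 (7.89% and 2.20%), XM_006525757.3 (5.85% and 7.34%) and XM_006525762.3 (15.4% and 11.2%) were the other transcripts above 5% on average in cKO or control.

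No transcript of Tcf3 passed either test. The most abundant, NM_011548.4, held 30.6% ± 7.85 (SD, n = 3) in cKO and 29.3% ± 4.61 (n = 3) in the controls, and NM_001164151.1 held 21.9% ± 6.01 and 19.6% ± 5.32. The split of reads was unstable between libraries of 1 genotype. NM_001164149.1 was at 0.09%, 14.0% and 16.5% in cKO and at 12.3%, 0% and 18.8% in the controls, and XM_017313871.1 was at 10.8% and 17.2% in the libraries where the first was near 0. The others were NM_001164152.1 (7.71% and 10.5%), XM_017313872.1 (8.28% and 8.78%) and NM_001164150.1 (5.70% and 2.70%).

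The partners of the E proteins in muscle diverged. Of the 4 myogenic factors, Myog (log2 fold change -5.62, FDR = 0.000683) and Myf6 (-2.81, FDR = 0.000704), which act late in differentiation, fell. Myod1 was at 509 to 627 CPM in cKO and at 361, 295 and 1146 CPM in the controls (log2 fold change -0.08, FDR = 0.908), and Myf5, which marks committed SCs, at 51.0 to 62.6 CPM in cKO and at 21.3, 12.5 and 61.6 CPM in the controls (0.80, FDR = 0.272), so that none of the 4 rose. Without control replicate 3, Myod1 was higher in cKO by 0.78 on the log2 scale (FDR = 0.00305) and Myf5 was called higher (1.71, FDR = 0.00145). Of 11 tested other helix-loop-helix genes, Heyl (-2.97, FDR = 0.000849), a repressor downstream of Notch, and the tendon factor Scx (-1.44, FDR = 0.00559) fell, and none rose. Among all tested genes the shares were 7.67% lower and 4.65% higher.

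Genes of muscle with E-boxes in their regulatory regions were almost all lower. Of 14 tested, 13 fell and none rose, with a median log2 fold change of -5.58. The most abundant were Acta1, the skeletal actin gene (-6.71, FDR = 0.000139), the intermediate filament gene Des (-2.09, FDR = 0.000218) and the cardiac actin gene Actc1 (-8.06, FDR = 9.99e-05). The list was chosen with results known, and it shares Acta1, Ckm and Mylpf with the differentiated muscle markers, all of which were lower. Of 13 E protein coregulators, Cbfa2t3, a corepressor of the ETO family, fell (-5.18, FDR = 0.000347) and none rose. Over all tested genes 7.67% fell and 4.65% rose. At an FDR under 0.05 without a fold threshold, 5 coregulators were higher and 3 lower, beside 19.7% and 18.9% of all tested genes.

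**Figure D5:**
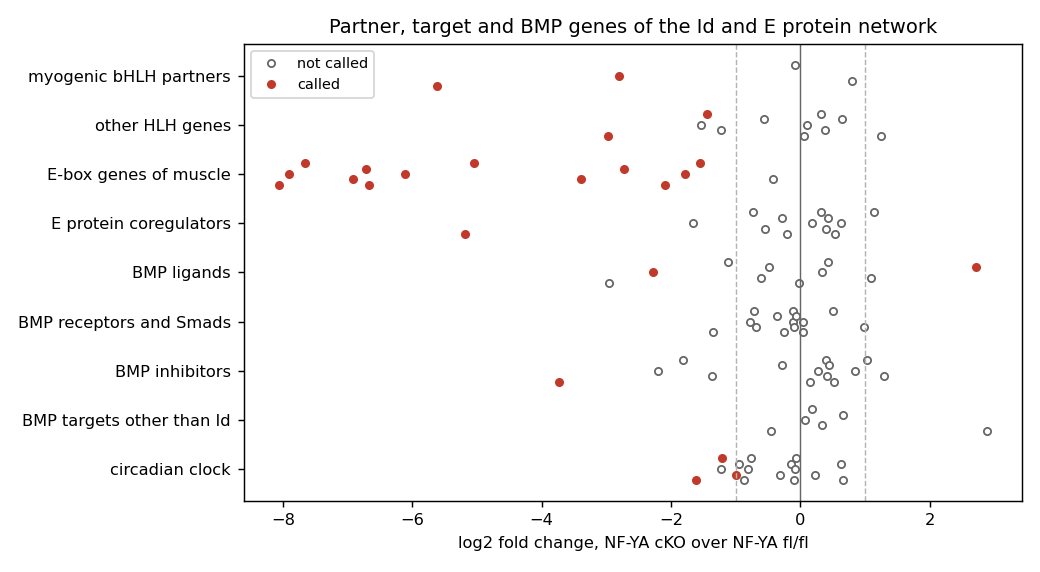
Log2 fold change of cKO over control for each tested gene in 9 lists, filled where called; dashed lines mark a log2 fold change of 1 in each direction. The E-box genes of muscle lie far to the left (13 of 14 called lower), while most genes of the BMP lists lie between the dashed lines.

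The BMP pathway induces Id genes in many cells. Of 38 tested ligand, receptor, Smad and inhibitor genes, 1 rose (2.63%) and 2 fell (5.26%), beside 4.65% and 7.67% of all tested genes. Among 10 tested ligands, Bmp7 rose (log2 fold change 2.72, FDR = 0.00318) and Bmp8a fell (-2.27, FDR = 0.00368), and both were scarce: Bmp7 was at 0.603 to 1.15 CPM in cKO and Bmp8a at 0.981 to 1.39 CPM in the controls. At an FDR under 0.05 Gdf5 (-2.95, FDR = 0.0151) and Gdf6 (-1.11, FDR = 0.0397) were also lower. No receptor or Smad gene of the 14 tested was called. Of the 14 inhibitors tested, 3 were higher and 4 lower at an FDR under 0.05, beside 19.7% and 18.9% of all tested genes. All are named here after their values were seen. The intracellular inhibitors Smad7 (0.84, FDR = 0.00189), Smurf1 (0.39, FDR = 0.0127) and Smurf2 (0.45, FDR = 0.0417) were higher, and the secreted antagonists Chrd (-3.73, FDR = 0.000347), Nog (-1.81, FDR = 0.0319), Grem1 (-2.20, FDR = 0.0312) and Fst (-1.37, FDR = 0.012) were lower, although the genotypes overlapped for Grem1. Secreted antagonists that did not pass included Chrdl1 (1.29), Bmper (0.42), Twsg1 (0.28) and Fstl1 (0.15).

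Chrd, which encodes chordin, was the only one of the 14 inhibitors called. It was at 1.21, 0.893 and 0.987 CPM in cKO and at 18.4, 9.78 and 12.8 CPM in the controls, without overlap. Of the receptor and Smad genes, Smad9 (0.99, FDR = 0.0171) was higher at an FDR under 0.05, and Bmpr2 (-0.72, FDR = 0.0011), Acvr2a (-0.69, FDR = 0.0029) and Rgmb (-0.37, FDR = 0.0176) were lower, all chosen after their values were seen. The 6 tested BMP targets other than Id genes were not called, with a median log2 fold change of 0.25, and Tbx20 was higher at an FDR under 0.05 (2.88, FDR = 0.0405). Without control replicate 3, 7 of the 38 genes were called lower (18.4%, beside 9.81% of all genes tested in that fit) in place of 2, with the ligands Bmp5 and Gdf5, the coreceptor gene Eng, and Grem1 and Fst added. The medians were -0.25 for ligands, -0.11 for receptors and Smads, and 0.33 for inhibitors, beside -0.016 for all tested genes.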

How the data were processed

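Genotypes were taken from the sample labels. For quantification the authors used RSEM on Bowtie2 alignments against mm10 transcripts. Expected counts as deposited are neither normalized nor filtered and need not be whole. The deposited TPM values correct for transcript length and for library size, and the deposited percent values give a transcript's share of its gene's TPM.

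Expected counts were rounded. Tests covered genes and transcripts that exceeded 10 counts in 2 libraries or more, and used edgeR 4.0.16 (quasi-likelihood test after TMM, a model of genotype alone, Benjamini-Hochberg adjustment over all genes or all transcripts tested) in R 4.3.3. CPM values are TMM-normalized. The standard error is the log2 fold change divided by the square root of F, and 95% intervals use the fit's degrees of freedom. All 106521 deposited transcripts entered the filter. The fits were tested on simulated counts. Depth (26936230 to 41118984 counts) makes 3 counts equal to 0.0705 to 0.115 CPM; counting intervals cover counting error only. The labels number the libraries 1 to 3 in each genotype without naming animals, so that p-values measure the spread between these libraries.

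All 10 members, transcripts with a mean share of at least 5%, and in each other list the called genes (the 3 with the highest mean CPM if more than 3) were named; exceptions are marked. Members and lists were chosen with earlier results of these data known. Coordinates are from GENCODE (GRCm38) and promoters from RefSeq. The alternatives tried were filterByExpr, DESeq2 1.42.0, DESeq2 size factors within edgeR, no filter, limma 3.58.1 on log2(TPM + 1) and log2(TPM + 0.1), an FDR under 0.05, the replicate number as a block, and each library left out.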

Additional observations from a re-analysis of the deposited data

How the results depend on the processing

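Of 130 refits of single genes (13 alternatives for each of 10 genes), 122 kept direction and call. The count of genes called higher, 1 in the fit with all libraries, was 0 under limma on log2(TPM + 1) and 0 under limma on log2(TPM + 0.1), and ranged from 0 to 3 when 1 library was left out. It was 0 without NF-YA cKO replicate 2 or 3, and 3 (Id1, Id2 and Id3) without NF-YA fl/fl replicate 3. The count called lower was 0 under every alternative, an FDR under 0.05 with the same fold included. Twist1, never called, had log2 fold changes from -0.33 to 0.48 with 1 library left out and changed sign without NF-YA fl/fl replicate 3 (-0.33) and without NF-YA cKO replicate 1 (-0.00022). The count of called E protein transcripts, 1, ranged from 0 to 1 with 1 library left out, and was 0 with the replicate block; these alternatives were chosen after seeing the data. Libraries with the same replicate number did not deviate together in every pair (correlations 0.165, -0.069 and 0.053). With 3 libraries per genotype and control replicate 3 standing apart, these values cannot show whether libraries of the same number were handled together. With the replicate block as a term, Id2 stayed called (log2 fold change 1.19, FDR = 0.00292) and no other gene of the 10 changed its call; over all genes, the block gave 625 higher and 947 lower calls in place of 806 and 1331, and DESeq2 gave 986 and 1804. The log2 ratio of Id to E protein mRNA, 1.12 higher in NF-YA cKO, was 1.28 with CPM in place of TPM and 0.94 to 1.24 with 1 library left out. The share of XM_006525764.3 in Tcf4 was the only one of the named transcripts' shares to move beyond the spread between libraries, from -4.60 to -1.94 percentage points with expected counts.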
